A study of Mus musculus with 764 samples.

Results

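Transcription factors that mark effector, stem-like and tissue-resident T cells were followed in single CD4+ T cells that carry a reporter of IL-10, an anti-inflammatory cytokine. The set was chosen by name, with earlier results of these data known. It consists of 7 genes: Id2, Id3, Tox, Zfp683, Klf6, Zeb2 and Ikzf3. Of these, 6 have a row among the 23997 gene rows. Zfp683, which encodes Hobit, a factor of tissue-resident lymphocytes, has no row and was not analysed here.

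Every cell came from a mouse treated with anti-CD3, an antibody that stimulates T cells through their receptor complex, and was sorted as an IL-10+ CD4+ T cell from the small intestine (SI) or the spleen. Of 764 cells, 190 came from the SI and all others from the spleen. The mice of the study carried 2 reporters, an eGFP read out from the Il10 locus and an mRFP read out from the Foxp3 locus, and IL-10+ Foxp3+ cells were included as a control according to its text. RNA was read by SMART-seq2, a full-length cDNA protocol for single cells in wells. The labels name neither an animal nor a mouse age for any cell, so each tissue counts as 1 sample, no difference between tissues was tested and no difference has a replicate check.

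Plate and well are part of each cell's title, and they split the spleen into 3 well sets: columns 1 to 12 of p1, columns 13 to 24 of p1, and p2. All small intestine cells lay in columns 13 to 24 of p2. On that plate, tissue and well position cannot be told apart. The study describes EDTA and collagenase steps for intestinal cells and no isolation procedure for spleen cells. Any part of cell isolation in the tissue differences cannot be told apart from tissue either. After removal of shallow cells and of cells called S or G2M, 71.1% of the SI cells were kept (55 removed), and 68.8%, 76.3% and 64.6% of the 3 spleen sets (60, 45 and 68 removed). Median reads per kept cell were between 319657 and 366238 in the 4 sets. At least 10 reads of each of 3 T-cell genes, Cd3e, Cd3d and Cd4, were found in 97.9% or more of the cells of every set. The sets differed in other markers. Foxp3, the factor of regulatory T cells, had at least 10 reads in 72 cells of p1 columns 1 to 12 but in 19 cells of p1 columns 13 to 24. Cd8a had at least 10 reads in 20% of SI cells and in at most 0.758% of the cells of any spleen set. Cd8b1 went the other way, with 5.19% of SI cells and 14.4%, 10.3% and 9.68% of the spleen sets. The summed mean level of 5 myeloid marker genes was 0.339 CPM in the SI and between 6.41 and 13.7 CPM in the spleen sets, where CPM is the reads of a gene after the gene reads of each cell are scaled to 1000000.

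Id proteins are helix-loop-helix proteins without a DNA-binding region. They bind E proteins, among them those encoded by Tcf3 and Tcf12, and keep them off DNA. In T cells Id2 is known from effector cells and Id3 from naive, memory-precursor and follicular helper cells. Tox encodes a DNA-binding protein needed for CD4+ T-cell development and abundant in chronically stimulated cells. Klf6 encodes a zinc-finger factor of the Kruppel-like family, Zeb2 a zinc-finger repressor of effector cells, and Ikzf3 the Ikaros family factor Aiolos. Each factor was set against Gzmb, which encodes the protease granzyme B of cytotoxic granules, and against Tcf7, which encodes TCF-1, a factor of naive and stem-like T cells.

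The positions below are those of GENCODE M21 on GRCm38, the build that the labels name as mm10. Id2 lies on chromosome 12 from 25093799 to 25097140 on the minus strand. Id3 lies on chromosome 4 from 136143497 to 136145755 on the plus strand, and Tox on the same chromosome from 6686353 to 6991557 on the minus strand. Klf6 lies on chromosome 13 from 5861482 to 5870394 on the plus strand, Zeb2 on chromosome 2 from 44983632 to 45117395 on the minus strand, and Ikzf3 on chromosome 11 from 98464902 to 98546031 on the minus strand.

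Id2 and Id3 had opposite directions between the tissues, so whether their reads can be told apart was examined in their sequences. The most alike stretch of 90 coding bases without a gap is shown for both genes, with the bases that differ in capitals. It covers chr12:25095783-25095872 on the minus strand for Id2 and chr4:136144032-136144121 on the plus strand for Id3, both in exons.
Id2: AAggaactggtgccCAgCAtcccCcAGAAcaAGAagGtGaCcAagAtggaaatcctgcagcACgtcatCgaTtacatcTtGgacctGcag
Id3: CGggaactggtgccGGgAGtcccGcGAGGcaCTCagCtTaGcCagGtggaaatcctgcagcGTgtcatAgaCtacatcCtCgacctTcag
In this stretch 26 bases differ and 71.1% are identical, and the longest run shared by any transcripts of the 2 genes is 19 bases. Among windows of 50 bases, none of the 1741 of Id3, the 4383 of Klf6 or the 8703 of Ikzf3 occurs in a transcript of another gene on either strand. For Id2 the share is 0.329%. It is 2.83% for Tox and 2.26% for Zeb2, most of it in the antisense genes Gm11802 and Zeb2os. The protocol as described does not mark strand, so reads of a gene and its antisense partner cannot be told apart. Zeb2os itself averaged at most 0.944 CPM in any set.

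Id2 was the member found in nearly every SI cell. Its level per cell ranged from 0 to 6072 CPM in the SI, with a median of 1385 CPM. In the spleen sets the medians were 173.3, 170.4 and 84.1 CPM, and the highest cells reached 2203, 5056 and 4028 CPM. The ranges therefore overlapped, while all SI cells but 1 had at least 10 reads (99.3%, 95% Clopper-Pearson interval 95.9% to 99.98%) against 65.2%, 60% and 56.5% of the spleen sets. Mean Id2 was 1595 CPM (SD over cells 981.05) in the SI and 369.3, 616.5 and 421.3 CPM in the spleen sets, so that it was 2.59 to 4.32 times as high. Among cells with at least 10 Id2 reads, the mean was 1607 CPM in the SI and 566.4, 1027 and 744.9 CPM in the spleen sets, so cells with the transcript also differed in its level. Intervals cover the sampling of cells within a set only, and not differences between animals, since each tissue is 1 sample. Reads of this protocol carry no molecular identifiers.

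Id3 showed the opposite pattern and was rare everywhere. No kept SI cell held an Id3 read. A count of 0 allows a share of up to 2.22% of cells with a read (3 cells of all kept SI cells), and the Clopper-Pearson upper limit is 2.70%. In the spleen, 6, 6 and 16 cells of the 3 sets had at least 10 reads, which are 4.55%, 4.14% and 12.9%, and the intervals of the first 2 sets overlap that of p2 (7.56% to 20.1%). In these cells, which were picked by that minimum, the means were 304.1, 218.8 and 225.8 CPM. At least 1 Id3 read was found in 10, 6 and 18 cells of the sets. Over all cells, the sets averaged 14.1, 9.05 and 29.3 CPM, and 5 cells held 91.2% and 92.9% of the Id3 reads in the p1 sets and 61.3% in p2.

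**Figure D1:**
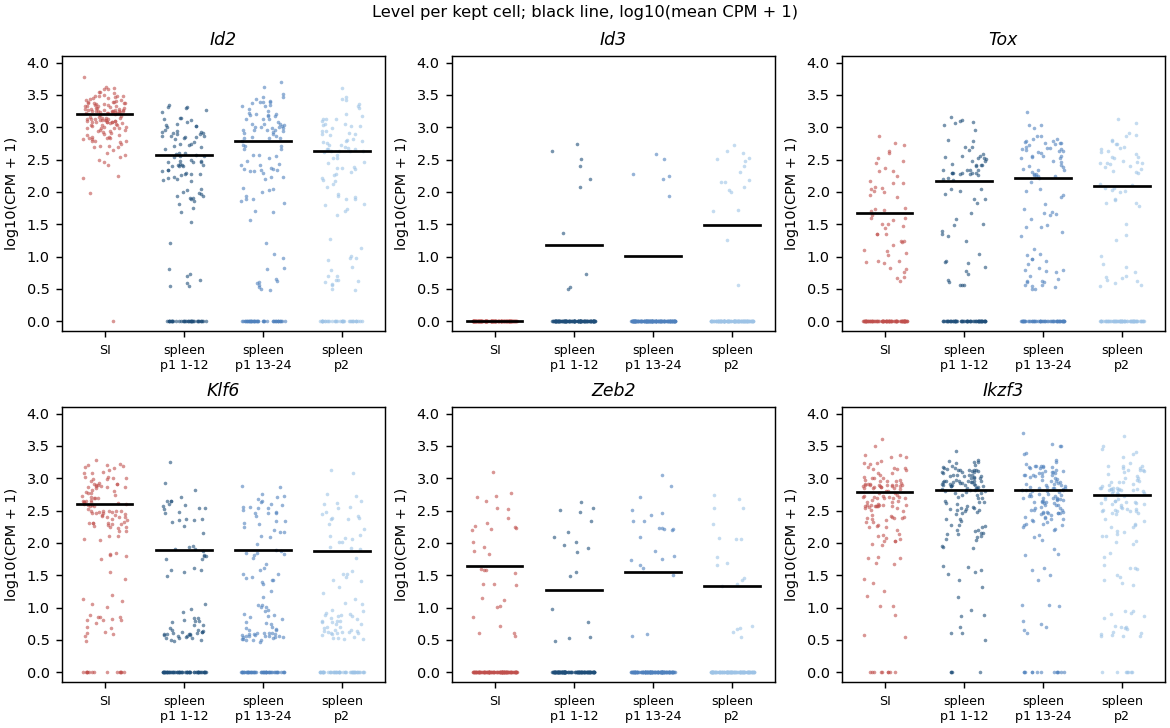
Level of each measured factor in each kept cell, as log10(CPM + 1), in the small intestine (SI) and the 3 spleen well sets. Each point is 1 cell, spread sideways at random, and the black line is the log10 of the mean CPM + 1. Id2 points in the SI form 1 high cloud whereas spleen cells spread down to 0, and Id3 has no point above 0 in the SI.

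Klf6 was the second factor higher in the SI. The median cell had 267.8 CPM there and 2.45, 3.07 and 3.35 CPM in the spleen sets, and the highest cell of p1 columns 1 to 12, at 1762 CPM, lay close to the highest SI cell at 1907 CPM. Mean Klf6 was 395.02 CPM (SD 437.2) in the SI and 78.1, 77.5 and 73.9 CPM in the spleen sets, 5.06 to 5.35 times as high. The spleen sets thus differed by 1.06 times among themselves. At least 10 reads were present in 73.3% of SI cells (interval 65.04% to 80.6%) and in 28.03%, 31.03% and 26.6% of the spleen sets. A few reads were common in the spleen too, since at least 1 read was found in 54.5%, 64.8% and 61.3% of cells, against 88.9% in the SI.

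Tox was lower in the SI, in both the share of cells and the level. The SI median was 0 CPM and its highest cell 726.2 CPM. The spleen medians were 2.80, 5.70 and 0 CPM, with highest cells of 1419, 1708 and 1321 CPM. Mean Tox was 46.2 CPM (SD 115.9) against 146.1, 160.3 and 121.1 CPM, which makes it 2.62 to 3.47 times as high in the spleen sets. At least 10 reads were present in 24.4% of SI cells (interval 17.5% to 32.6%) and in 39.2% of all spleen cells (interval 34.3% to 44.1%). The interval of the SI overlaps those of p1 columns 1 to 12 (31.01% to 48.3%) and of p2 (27.1% to 44.6%), but not that of p1 columns 13 to 24 (33.9% to 50.5%). In cells with at least 10 reads the mean was 181.2 CPM in the SI and 367.6, 377.3 and 339.6 CPM in the spleen sets.

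Zeb2 differed by 2 times from some spleen sets only, and Ikzf3 from none. Zeb2 was read in few cells, with at least 10 reads in 15.6% of SI cells (interval 9.89% to 22.8%) and in 9.85%, 14.5% and 9.68% of the spleen sets, whose intervals all overlap it. Its mean of 43.7 CPM (SD 147.1) in the SI was 1.26 to 2.49 times those of the spleen sets, which themselves differed by 1.97 times. In each set 5 cells held 58.4% or more of all Zeb2 reads. Ikzf3, in contrast, was read in most cells of both tissues, in 87.4% of the SI and 89.4%, 84.8% and 77.4% of the spleen sets. Mean Ikzf3 was 605.6 CPM (SD 640.5) in the SI, within the range of 560.1 to 662.2 CPM of the spleen sets.

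**Figure D2:**
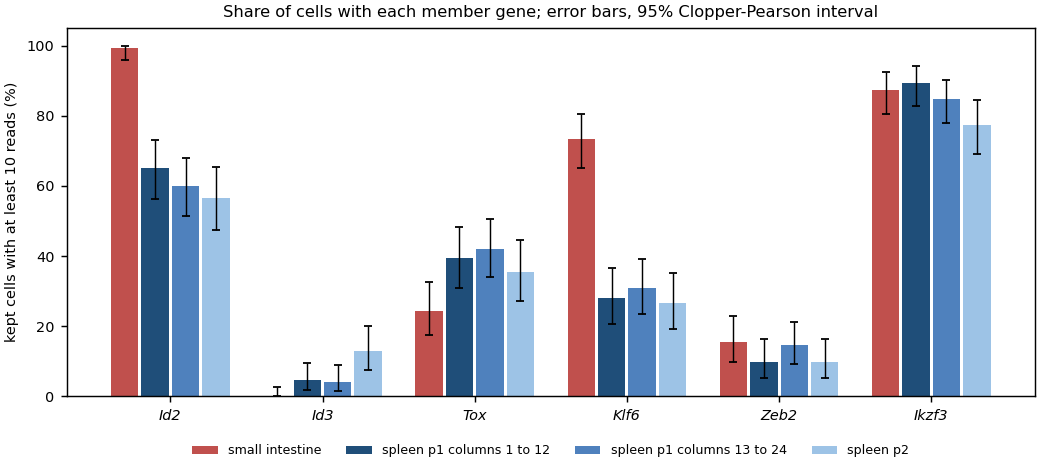
Percent of kept cells with at least 10 reads of each factor in the SI and the 3 spleen well sets, with 95% Clopper-Pearson intervals as error bars. The SI bar is the highest for Id2 (99.3%) and Klf6 (73.3%), at 0 for Id3 and the lowest for Tox (24.4%), and it stands beside the spleen bars for Zeb2 and Ikzf3.

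To set these ratios against all other genes, the log2 ratio of the SI level (mean CPM + 1) over that of each spleen set was computed for the 9271 genes with a mean of at least 10 CPM in at least 1 set. A gene counted as higher or lower when it differed by at least 2 times in the same direction from each of the 3 spleen sets. By this rule 2 of the 6 members, Id2 and Klf6, were higher, where 5.19% of all genes were. Another 2, Id3 and Tox, were lower, where 10.9% of all genes were. Because the members were chosen with earlier results of these data known, these counts describe the members and test nothing. The log2 ratios against the 3 sets in turn were 2.11, 1.37 and 1.92 for Id2 and 2.32, 2.34 and 2.40 for Klf6. They were -1.64, -1.77 and -1.37 for Tox, 1.27, 0.33 and 1.07 for Zeb2, and -0.12, -0.13 and 0.11 for Ikzf3. Zeb2 thus missed the call through p1 columns 13 to 24 alone. Without that set it was the third higher member, where 6.29% of genes were higher, and so it was against p2 alone, where 10.1% were. The median gene had a log2 ratio of -0.24 against all spleen cells, so Ikzf3, at -0.05, stood 0.19 above it. Of all genes called, 32.2% were higher, and 44.3% and 46.1% under TMM and DESeq2 size factors. Under the latter Ikzf3 was at 0.19 and Tox at -1.37, and the tally of lower members fell to Id3 alone. A pseudocount of 10 CPM, which shrinks the ratios of low genes such as Id3, left Tox alone in that tally.

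**Figure D3:**
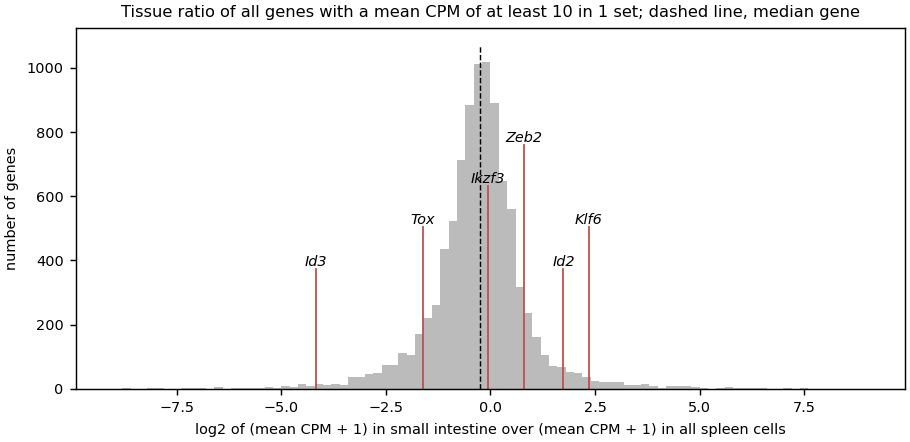
Number of genes (vertical axis) by log2 ratio of mean CPM + 1 between SI and all spleen cells, for 9271 genes, with the 6 members as red lines and the median gene (-0.24) as a dashed line. Id2 (1.75) and Klf6 (2.35) lie in the right tail, Tox (-1.62) and Id3 in the left tail, and Ikzf3 (-0.05) near the centre. The place of Id3 depends on the pseudocount, since no kept SI cell has a read of it.

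The spleen cells mixed states that the SI cells did not. Cells were split by whether they had at least 10 reads of Gzmb, of Tcf7, of both or of neither. Of the SI cells, 88.1% had Gzmb only, none had Tcf7 only, 2 had both and 14 had neither. Gzmb only was found in 51, 45 and 21 cells of the 3 spleen sets, and Tcf7 only in 25, 44 and 70 cells. The p2 spleen cells therefore held the largest Tcf7 share of the spleen sets (56.5% with Tcf7 only, interval 47.3% to 65.3%).

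Within the spleen, Id2 followed this split in every set. At least 10 Id2 reads were present in 86.3%, 84.4% and 90.5% of cells with Gzmb only, and in 28%, 29.5% and 40% of cells with Tcf7 only. The intervals of the 2 states do not overlap in any of the sets. Cells with neither gene lay between them at 63.6%, 63.5% and 75%. Mean Id2 was 564.7, 771.01 and 993.6 CPM in cells with Gzmb only against 74.7, 151.8 and 157.1 CPM in cells with Tcf7 only. Median genes per cell were also higher with Gzmb only than with Tcf7 only, at 3534 against 2974 over the spleen, and the part of this in the Id2 shares was not tested. In the SI Id2 was present in 99.2% of cells with Gzmb only and in each of the 14 cells with neither gene.

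Mean Id2 was also higher in the SI among cells with Gzmb only, although these cells were not alike in Gzmb itself. In cells with at least 10 Gzmb reads, the median was 18408 CPM in the SI and 1836, 1966 and 2809 CPM in the spleen sets, and the part of this in the values below was not tested. Among cells with Gzmb only, the SI mean of 1631 CPM was above the 564.7, 771.01 and 993.6 CPM of the spleen sets, with log2 ratios of 1.53, 1.08 and 0.71. The last of these, against p2, is below 2-fold. For Klf6 the same cells gave 412.8 CPM against 87.7, 102.2 and 111.9 CPM, and log2 ratios between 1.87 and 2.22. For Tox they gave 40.3 CPM against 67.5, 174.1 and 76.4 CPM, with log2 ratios of -0.73, -2.08 and -0.90, so that only the p1 columns 13 to 24 value passed 2-fold.

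Id3 was found mainly in spleen cells with Tcf7. Over the spleen, 23 of the 28 cells with at least 10 Id3 reads had Tcf7 only, 3 had both genes, 1 had Gzmb only and 1 had neither. Among cells with Tcf7 only, Id3 was present in 24% (interval 9.36% to 45.1%), 9.09% (2.53% to 21.7%) and 18.6% (10.3% to 29.7%) of the 3 sets. Most cells with Tcf7 thus had no Id3, and these intervals all overlap. No cell with Gzmb only had an Id3 read in either p1 set.

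**Figure D4:**
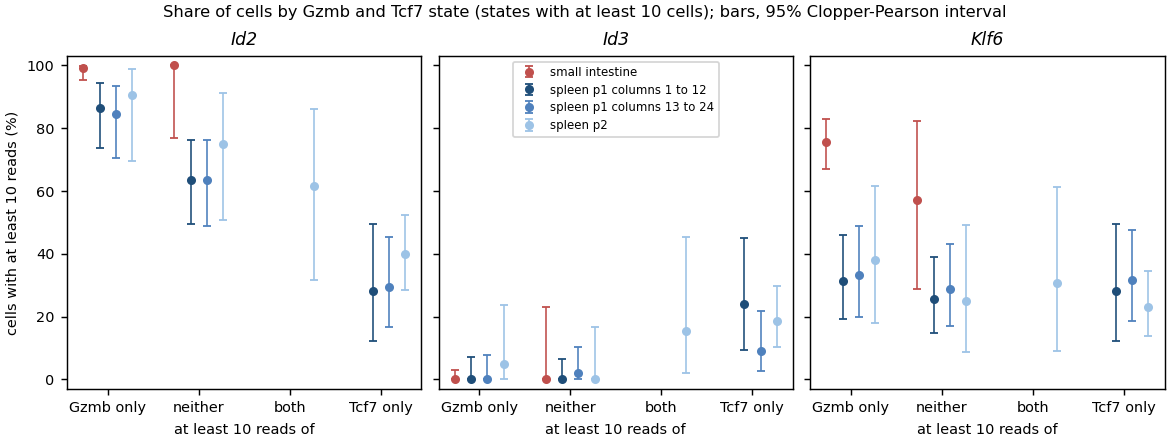
Percent of cells with at least 10 reads of Id2, Id3 and Klf6 (panels) in cells with at least 10 reads of Gzmb only, neither gene, both, or Tcf7 only, for each set with at least 10 cells in the state. Bars are 95% Clopper-Pearson intervals. Id2 falls from 84.4% to 90.5% with Gzmb only to 28% to 40% with Tcf7 only in the spleen sets, Id3 is seen mainly with Tcf7, and the Klf6 intervals of the states overlap within each spleen set.

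Id2 and Id3 were also read together in some cells. With at least 10 reads as the minimum, 58.1% of spleen cells had Id2 only (interval 53.1% to 62.98%), 18 cells had Id3 only (4.49%, 2.68% to 7.002%), 10 had both (2.49%, 1.20% to 4.54%) and 140 had neither. Of the 18 cells with Id3 only, 17 had at least 10 Tcf7 reads, as had 9 of the 10 cells with both. Of the cells with Id2 only, 21.5% had Tcf7 and 47.6% had Gzmb. Of the 10 cells with both, 8 came from p2 and 2 from p1 columns 1 to 12. In the SI 1 cell had neither gene and every other cell had Id2 only.

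The relation of each factor to Gzmb and Tcf7 was also described by Spearman's rho across the cells of each set, which share a plate, so that no p is given. Positive or negative was written where rho passed 0.2 in 3 of 4 sets for Gzmb and in 2 of 3 spleen sets for Tcf7, among genes with reads in 10% or more of the cells in every set. Id3 did not pass this filter on reads, which left 5 members. Only Id2 was positive for Gzmb, with 0.38, 0.25 and 0.24 in the spleen sets and 0.00 in the SI, where 0.711% of 6888 genes were positive. No member was negative for Gzmb, where 0.261% of genes were. In p1 columns 1 to 12, 0.116% of genes had a higher rho with Gzmb than Id2. In p1 columns 13 to 24 and p2 1.99% and 3.80% did.

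For Tcf7, only Id2 was negative, with -0.38, -0.42 and -0.50 in the spleen sets and -0.07 in the SI, where few cells hold Tcf7 reads. Over all 6889 genes 3.89% were negative. No member was positive, against 2.16% of genes, although Id3, which was outside the filter, had 0.41, 0.24 and 0.22. Tox stood out in 1 set only, with a rho with Gzmb of -0.31 in p1 columns 1 to 12 and of 0.02, 0.05 and 0.06 in the SI, p1 columns 13 to 24 and p2. In that set the Tox value lay between -0.31 and -0.25 under the settings tried, among them the 48 cells without a Foxp3 read. Klf6 had values of 0.08 to 0.13 with Gzmb and of -0.07 to -0.02 with Tcf7, and Zeb2 reached -0.22 with Tcf7 in p2. Ikzf3 reached -0.20 with Tcf7 in p1 columns 13 to 24.

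**Figure D5:**
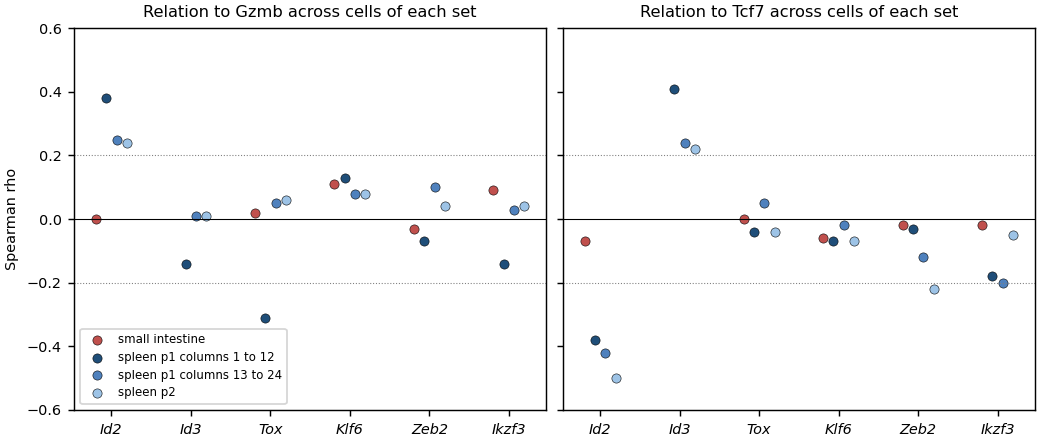
Spearman's rho of each factor (horizontal axis) with Gzmb (left) and Tcf7 (right) across the cells of each set, with dotted lines at 0.2 and -0.2. Id2 lies above 0.2 with Gzmb (0.24 to 0.38) and below -0.2 with Tcf7 (-0.50 to -0.38) in the 3 spleen sets and near 0 in the SI, and Id3, with reads in few cells, has no point in the SI.

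Relations of the factors with one another were weak from cell to cell. Of 55 rho values between pairs of members within sets, 1 reached 0.2 (Id2 with Zeb2 in p2, 0.20) and 1 passed -0.2 (Id2 with Id3 in p1 columns 13 to 24, -0.23). With Il10 itself, Id3 had a negative rho in each spleen set (-0.29, -0.16 and -0.24) and Ikzf3 a positive one (0.22, 0.16 and 0.18), while Id2 had 0.01, 0.09 and 0.24. The rho with the number of genes read per cell was 0.09 to 0.27 for Zeb2 and -0.22 to -0.13 for Ikzf3 over the 4 sets. For Id2 it reached 0.20 in p1 columns 13 to 24. The part of this in the other relations of these factors was not tested.

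Among the genes that pass this filter on reads, those with the highest mean rho with Id2 were Cxcr6 (0.40), S100a4 (0.38) and Nkg7 (0.35). Cxcr6 encodes a chemokine receptor of tissue T cells, S100a4 a calcium-binding protein and Nkg7 a protein of cytotoxic granules. Their rho in the SI was 0.12, 0.06 and 0.11, below the values in the spleen sets, where Cxcr6 reached 0.37, 0.65 and 0.45. Rplp1, a ribosomal protein gene, had the lowest mean rho with Id2 among these genes (-0.26). Tcf7 was outside the filter, which needs reads in 10% or more of the cells of every set, the SI included. Its rho with Id2 was -0.38, -0.42 and -0.50 in the spleen sets, against -0.25, -0.41 and -0.34 for Rplp1. For Id3 the 3 highest genes over the spleen sets, among those that pass the filter, were Asap1, Sesn3 and Tctn1 (0.28, 0.26 and 0.22). Sesn3 had 0.10 in p1 columns 13 to 24, and Tctn1 had 0.00 in p2. The lowest such gene was Tnfrsf4, which encodes the costimulatory receptor OX40 (-0.26). Tcf7, outside the filter, had 0.41, 0.24 and 0.22 with Id3 in the spleen sets.

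The other factors had weaker partners among genes that pass the same filter. Tox was most like Ikzf2 (0.18), which encodes Helios, the kinase gene Lck (0.17) and Glcci1 (0.16). Ikzf3 was most like Tigit (0.19), a co-inhibitory receptor gene, Tnfrsf1b (0.19), which encodes a TNF receptor, and Tnfaip8 (0.18), and least like the nucleolar gene Npm1 (-0.25). For Klf6 the genes were Pigv, Ulk2 and Ssh1 (0.16, 0.16 and 0.15), and for Zeb2 Dnajc11, Aldoa and Alg3, each with 0.20. In the SI, Ikzf3 had a rho of -0.00 with Tigit, 0.00 with Tnfrsf1b and 0.15 with Tnfaip8. Tox had 0.09 with Ikzf2, 0.18 with Lck and -0.02 with Glcci1 there. All these genes were picked as the highest or lowest of those that pass the filter, and in counts with many zeros such values are weak.

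Cells with Foxp3 reads were compared with cells without them inside the spleen, since the sets differ in Foxp3. In p1 columns 1 to 12, Id2 was present in 68.1% of the 72 cells with at least 10 Foxp3 reads and in 66.7% of the 48 cells with none. Over the spleen, Id3 was present in 1 of 96 cells with at least 10 Foxp3 reads (1.04%, interval 0.0264% to 5.67%) and in 25 of the cells with none (8.83%, 5.80% to 12.8%). In p1 columns 1 to 12 alone, which held 72 of the 96 cells, the Id3 shares were 1.39% (0.0352% to 7.50%) and 8.33% (2.32% to 19.98%), whose intervals overlap. Ikzf3 was present in 94.8% (88.3% to 98.3%) and 79.9% (74.7% to 84.4%) of the same spleen cells. Within sets its intervals overlap, with shares of 95.8% (88.3% to 99.1%) and 81.2% (67.4% to 91.1%) in p1 columns 1 to 12, and of 89.5% (66.9% to 98.7%) and 83.2% (75.2% to 89.4%) in p1 columns 13 to 24. Tox was present in 38.5% and 39.6% of cells. Without any cell holding a Foxp3 read, the log2 ratios of the tissues were 1.76 for Id2, 2.39 for Klf6 and -1.60 for Tox. Without cells holding a Cd8a or Cd8b1 read, which left 94 SI cells, they were 1.71, 2.22 and -1.69.

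The partners and relatives of the factors were read by the same rule on all 3 spleen sets. Over all genes the median log2 ratio was -0.24, and 5.19% were higher and 10.9% lower. The lists were chosen with earlier results of these data known, so their counts are descriptions only. Both E protein genes that passed the filter on levels, Tcf3 and Tcf12, differed by less than 2 times (37.1 against 51.7 CPM and 108.98 against 74.8 CPM over all spleen cells). Of the other Tox genes, Tox2 was higher in the SI (82.1 against 33.5 CPM) and Tox4 was not called (101.7 against 111.5 CPM). Tox and Tox2 thus had opposite directions. In the Ikaros family, Ikzf4 was higher (20.95 against 3.49 CPM) and Ikzf2 lower (51.9 against 221.3 CPM), while Ikzf1 and Ikzf5 were not called.

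Klf6 likewise differed in direction from some of its relatives. Of 5 other listed Kruppel-like factor genes that passed the filter, 3 were lower in the SI (Klf2, Klf3 and Klf7), where 10.9% of all genes were. None was higher, and the median log2 ratio was -1.53. Klf10 (45.6 against 74.8 CPM) and Klf13 (420.7 against 306.5 CPM) were not called. Klf2, which drives the exit and homing receptors of circulating T cells, had 4.49 against 101.8 CPM. Its target S1pr1, an egress receptor gene (2.19 against 276.5 CPM), was lower as well, as was the lymph node homing receptor gene Ccr7 (0.0876 against 254.9 CPM).

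Genes of tissue residency were mostly on the other side. Of 9 residency surface and secreted genes, 6 were higher, where 5.19% of all genes were, and none lower, with a median of 2.14. They were Itgae and Itga1, integrin chains of epithelial and matrix binding (502.7 against 13.4 CPM and 178.9 against 0.00677 CPM), Cd69 (814.2 against 183.7 CPM), the gut homing receptor gene Ccr9 (1009 against 80.96 CPM), Rgs1 (8438 against 632.2 CPM) and P2rx7 (350.1 against 131.4 CPM). The 3 genes not called were Cxcr6 (1291 against 796.6 CPM), Cd101 (13.1 against 31.9 CPM) and Xcl1, a chemokine gene with no read in kept SI or p1 columns 1 to 12 cells and 6.65 CPM over the spleen. Of 9 regulators linked to residency, Bhlhe40 (1139 against 118.4 CPM), Nr4a1 (452.4 against 163.7 CPM), Nr4a2 (87.4 against 10.7 CPM) and Rora (274.8 against 67.6 CPM) were higher, where 5.19% of all genes were. None was lower, with a median of 1.10. Prdm1, which encodes Blimp-1, was not called, with 362.1 against 247.7 CPM.

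Most of the listed genes known from cells with Id3 were lower beside it. Of 8 stem-like and follicular genes that passed the filter, 6 were lower, where 10.9% of all genes were, and none higher, with a median of -3.53. Tcf7 had 2.30 against 377.8 CPM, Cxcr5, the follicle homing receptor gene, 0.362 against 383.4 CPM and Slamf6 46.5 against 595.6 CPM. Lef1, Bach2 and Myb were lower too. Il7r (261.9 against 550.2 CPM) and Foxo1 (205.8 against 136.5 CPM) were not called, and Foxo1 leaned higher. Bcl6, below the filter, also leaned higher (8.58 against 2.75 CPM). Of 7 cytotoxic genes, 5 were higher, where 5.19% of all genes were, and none lower, with a median of 2.31. Among the higher genes were Gzma (36331 against 33.8 CPM), Gzmb (19048 against 1498 CPM) and Prf1, which encodes perforin (239.8 against 49.9 CPM). The co-inhibitory receptor genes often linked to Tox did not pass 2-fold against all sets in either direction in any of the 6 cases, with a median of -0.77. Their log2 ratios against all spleen cells went both ways, at 1.13 for Ctla4 and 0.86 for Havcr2. They were -1.05 for Tigit, -0.95 for Entpd1, -0.83 for Pdcd1 and -0.70 for Lag3. Of the 5 genes linked to Zeb2, Cx3cr1 was lower (6.54 against 32.7 CPM), and the median was -1.0. Tbx21, Eomes, Klrg1 and Zeb1 were not called. Zeb1 leaned the other way from this median (167.3 against 68.2 CPM), with log2 ratios of 1.71, 0.95 and 1.33 against the 3 sets. Klrg1 had no read in kept SI cells and 69.9, 20.1 and 0.459 CPM in the spleen sets, the last of which kept it from the call.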

How the data were processed

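The deposited files hold read counts per gene, 1 column per cell, and the authors' SMART-seq2 reads were aligned with STAR. The labels name mm10, the study's methods Mm8. The counting tool and annotation are not given in the sources used here. Positions and sequences come from GENCODE M21 (GRCm38). All counts were used as deposited (764 columns, none unused), without the reporter row (0.00979% of reads).

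Cells over 3 median absolute deviations below their tissue's median of log reads or log genes were removed (31 spleen, 19 small intestine), then cells that cyclone placed in S or G2M (scran 1.30.0). Gene names were paired with Ensembl identifiers for 23449 of 23997 rows, which covered 653 of 667 cyclone genes. Total reads were 6659 to 622997 per cell and at least 162801 in kept cells. No doublet caller was run on these sorted wells.

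CPM, shares with Clopper-Pearson intervals, log2 ratios with a pseudocount of 1 CPM (which understates low genes) and Spearman's rho were computed in Python 3 with scipy and pandas. The rules were tested on simulated data. Alternatives were cell filters, thinning to 200000 reads, pseudocounts, TMM (edgeR 4.0.16) and DESeq2 1.42.0 factors on summed counts, exclusions of cells with Foxp3 or Cd8 reads, read minimums and rho limits. Members were given by name, and the named genes are the members, Gzmb and Tcf7, the 3 genes most alike each member and the called genes of fixed lists, of which 1 list is not reported here in full. Genes shown as least alike, and uncalled genes shown with values, are additions. The members and lists were chosen with earlier results of these data known.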

Additional observations from a re-analysis of the deposited data

Results flagged for a closer look

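Cells called S or G2M were left out of every comparison above, and the factors were read in them too. In the small intestine there were 36 such cells, and at least 10 reads were found in 100% of them for Id2, 80.6% for Klf6, 80.6% for Ikzf3, 47.2% for Tox and 36.1% for Zeb2. No such cell had 10 Id3 reads, and its mean there was 0.0782 CPM. In the spleen, with 48, 39 and 55 such cells in the 3 sets, the shares were 79.6% for Ikzf3, 74.6% for Id2, 59.9% for Klf6, 47.9% for Tox, 7.04% for Zeb2 and 6.34% for Id3. Each of these shares is above what a count of 0 would allow, which is what marked it.

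Klf6 differed most from the kept spleen cells. Its share was 54.2% (interval 39.2% to 68.6%), 64.1% (47.2% to 78.8%) and 61.8% (47.7% to 74.6%) in the removed cells of the 3 spleen sets, against 28.03%, 31.03% and 26.6% in the kept cells, and the intervals do not overlap in any set. Mean Klf6 was 129.3, 161.4 and 162.6 CPM there, against 78.1, 77.5 and 73.9 CPM. In the small intestine the Klf6 intervals of removed (63.98% to 91.8%) and kept cells (65.04% to 80.6%) overlap. The removed cells had more genes read per cell, with medians of 4193 to 4504 against 3105 to 3325. Whether the number of genes read bears on the Klf6 shares was not tested. In removed cells, mean Tox was 80.8 CPM in the SI and 146.2, 156.6 and 96.2 CPM in the spleen sets. Against each set the difference was under 2-fold. Mean Id2 was 1369 against 434.6, 858.6 and 325.8 CPM, under 2-fold for p1 columns 13 to 24. Removed SI cells had Tox in 47.2% (30.4% to 64.5%) against 24.4% of kept cells (17.5% to 32.6%). For Zeb2 the shares were 36.1% (20.8% to 53.8%) and 15.6% (9.89% to 22.8%), and the intervals overlap for both genes.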

How the results depend on the processing

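Of 58 counts of members under the alternatives, 53 kept within 1.5 times the reported count. The count of lower members was 1 in place of 2 without any filter on cells, with DESeq2 size factors (Id3 alone in both) and with a pseudocount of 10 CPM (Tox alone). Positive relations to Gzmb came to 0 at a rho of 0.3, and negative relations to Tcf7 to 3 at a rho of 0.1, where Zeb2 and Ikzf3 joined Id2 and 21.5% of all genes were negative. No called ratio or relation turned its direction. The log2 ratio ranged from 1.60 to 2.01 for Id2, from 1.92 to 2.51 for Klf6, from -1.71 to -1.27 for Tox, from 0.62 to 1.54 for Zeb2, from -0.19 to 0.19 for Ikzf3 and from -7.41 to -1.43 for Id3, whose value depends on the pseudocount. The highest Zeb2 value came without a filter on cells. The median gene moved from -0.24 to -0.04 with TMM and to -0.01 with DESeq2 size factors, and higher genes made up 32.2%, 44.3% and 46.1% of all genes called in these 3 fits. Relative to the median gene, Tox was at -1.37, -1.36 and -1.36. Against p2 spleen alone, 10.1% of genes were higher and 19.6% lower, and Zeb2 joined Id2 and Klf6 among the higher members. It did so too without p1 columns 13 to 24, and leaving out another spleen set called the same members. Of 120 shares of cells at other read minimums, 39 left their interval. For Id3, a count of 0 in the small intestine allows up to 2.22% of cells with a read. No paired analysis was possible because each tissue is 1 sample and no result comes from a test.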
